A study of Mus musculus with 8 samples.

Results

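The clustered protocadherins are cell-surface proteins of neurons encoded by 3 neighbouring gene groups, alpha, beta and gamma, on mouse chromosome 18. The members described here were every protein-coding gene of the deposited files whose GENCODE M21 symbol is Pcdha, Pcdhb, Pcdhga, Pcdhgb, Pcdhgc or Pcdhac followed by a number. That gave 57 of the 49585 genes in the files: 14 alpha genes, 22 beta genes and 21 gamma genes, between positions 36930184 and 37841873 of chromosome 18 (GRCm38, plus strand). Of the 21 gamma genes 12 belong to subfamily A, 6 to subfamily B and 3 are C-type genes. The alpha group holds 12 alternate genes and 2 C-type genes, Pcdhac1 and Pcdhac2. The 57 genes carry 56 symbols, because 2 identifiers in the alpha group share the symbol Pcdha11. Pcdhgb8 is annotated as a polymorphic pseudogene and so fell outside the rule.

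RNA was measured in the lumbar dorsal horn, the sensory part of the spinal cord that receives touch and pain input, dissected from segments L4 to L6 of adult C57BL/6J mice. The 8 polyA RNA-seq libraries fell into 2 groups of 4, wild type and miR-96 knock-out (miR-96 KO), the latter lacking the microRNA miR-96. The labels give no age beyond adult, no sex, no allele and no treatment, and they do not say whether each library came from a separate animal, so the p-values below measure the spread between libraries, which may be technical. The unit throughout is FPKM, fragment counts scaled to transcript length and to the mapped fragments of the library. It is per length and therefore lets the levels of different genes be set side by side. For alpha and gamma genes this holds less firmly, because they share exons and how fragments of shared exons were divided is not given.

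In each alpha and gamma gene a long variable exon encodes the extracellular cadherin repeats and the membrane span, and this exon is spliced to short constant exons shared by the whole group, which encode a common cytoplasmic tail. Beta genes each consist of a single exon and have no shared tail. A neuron switches on a few of the alternate genes through its choice of promoter, helped by CTCF, cohesin and DNA methylation, while the C-type genes are used more uniformly. The proteins bind identical partners on other membranes and are known for the self-recognition of dendrites and, in the spinal cord, for the survival of interneurons (the gamma group, Pcdhgc4 above all).

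The microRNA that was removed is shown because its seed, bases 2 to 8 (capitals), is the part that pairs with target sites.
mmu-miR-96-5p: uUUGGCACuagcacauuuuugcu
The mature sequence is from RefSeq (GRCm38.p6, chr6:30169506-30169528, minus strand). The 3′ untranslated regions of the members, taken from the GENCODE annotation, were searched for GTGCCAA, which pairs with the seed, and for TGCCAAA, which pairs with bases 2 to 7 and ends in A; the 2 words can overlap. All 14 alpha genes end in the same 3′ UTR of 2401 nt, which held neither word. None of the 21 gamma genes, whose 3′ UTR is 1744 nt or nearly so, held either word. Among the 22 beta genes, each with a 3′ UTR of its own, only Pcdhb4 had a match, 1 TGCCAAA. By comparison, 2674 of 13054 tested protein-coding genes with a 3′ UTR of at least 50 nt (20.5%) held at least 1 of the words. A match is a description of letters and no evidence of binding. The gene Mir96 was itself listed at 0 FPKM in all 8 libraries, which says nothing of mature miR-96, a molecule that polyA libraries of long RNA do not measure.

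Before any comparison between genotypes, wild-type replicate 1 has to be set apart. In that library the alpha genes summed to 1.96 FPKM, against 13.2 to 14.99 in the other 7 libraries of both genotypes, and the gamma genes summed to 9.06 FPKM, against 46.6 to 51.7. These sums were 7.02 times lower and 5.36 times lower than the means of wild-type replicates 2 to 4. The beta genes, in the same stretch of chromosome, were much less affected: their sum was 24.3 FPKM, against 31.7 to 39.8, and 1.38 times lower. As a share of the 3 groups together, beta genes made up 68.8% in this library and 33.6 to 39.8% in the other 7. Fold changes between genotypes are therefore given with and without this library.

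**Figure D1:**
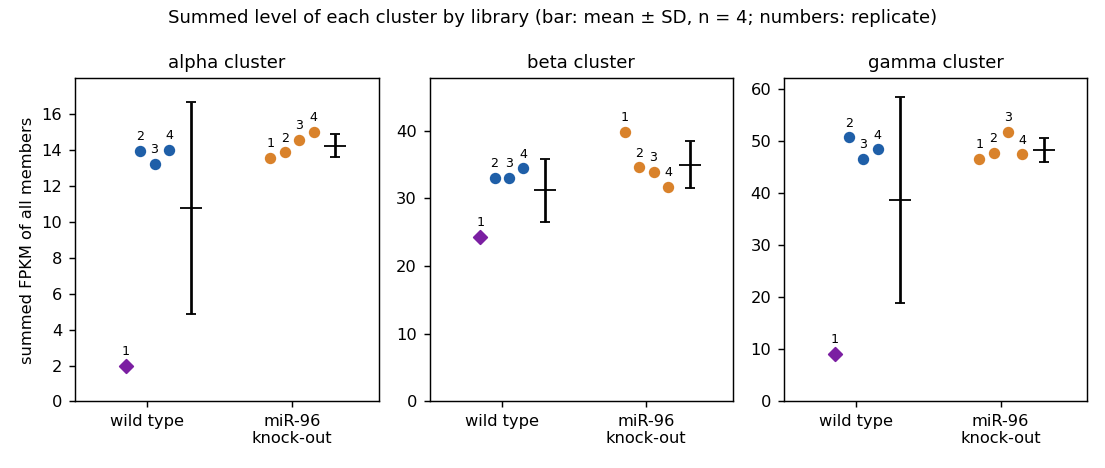
Summed FPKM of the alpha (14 genes), beta (22) and gamma (21) members in each library, wild type on the left and miR-96 knock-out on the right of each panel, with mean ± SD of 4 libraries and the replicate number beside each point. Wild-type replicate 1 (diamond) lies at 1.96, 24.3 and 9.06 FPKM, below the other 7 libraries in all 3 panels, and the remaining points of the genotypes overlap.

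The low values of wild-type replicate 1 ran through nearly every alpha and gamma gene. It was the lowest of the 8 libraries for 12 of 14 alpha, 17 of 22 beta and 20 of 21 gamma genes, and among tested genes for 1 of 1, 12 of 16 and 19 of 19, against 32.0% of all tested genes. Against each gene's median in the other 7 libraries, the median alpha gene stood at 11.6% and the median gamma gene at 16.9%. Of 13 alpha genes with a median above 0, 12 lay under 25%, the exception being Pcdha4, which was at no more than 0.0361 FPKM in every library. Of 20 gamma genes, 17 lay under 25%, and the others, Pcdhga4, Pcdhgc3 and Pcdhga12, stood at 25.1%, 35.8% and 39.1%. The median beta gene stood at 66.6%, and 3 of 22 lay under 25%: Pcdhb1 at 0, Pcdhb2 at 11.8% and Pcdhb21 at 23.3%. At the other end, Pcdhb12 and Pcdhb20 were highest in this library, at 128% and 138%. The pseudogene Pcdhgb8, which shares the gamma constant exons, was low there as well, at 0.0994 FPKM against 0.251 to 0.541.

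Few other genes fell as far in wild-type replicate 1, but more did so there than in any other library. The median of the other 13173 tested protein-coding genes was 98.1% of their level in the other libraries, and 108 of them (0.82%) lay under 25%. In each of the other 7 libraries, read against the rest, 2 to 43 of them did. Sets of other coding genes picked by length, level, exon number or shared exons were read in the same way. Their bearing on the low values was not tested. Other coding genes with transcripts of 4500 to 6000 nt had a median of 84.1% (20 of 2047 under 25%), and those that also had a mean of 1 to 10 FPKM had a median of 86.3% (15 of 764 under 25%). Single-exon genes, the structure of the beta members, had a median of 113%, and coding genes that share at least 30% of their exon bases with another coding gene on the strand had a median of 119%. Of all 15061 tested genes, 288 (1.91%) lay under 25% in this library, against 20 to 76 in each of the other 7. Of these 288, 18 were members (6.25%). Estimated depth was about 34400000 fragments in this library, within the 32000000 to 43000000 of all 8 libraries. Its part in the low values was not tested either.

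**Figure D2:**
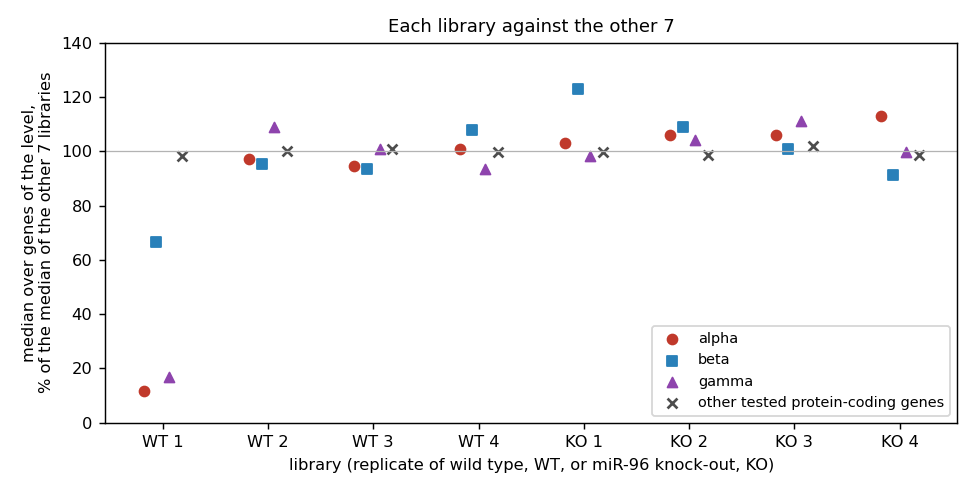
Each library set against the other 7: for every gene the level as a percentage of its median in the other 7 libraries, shown as the median over alpha, beta and gamma members and over the other tested protein-coding genes (crosses). The alpha and gamma points of wild-type replicate 1 lie at 11.6% and 16.9%, while its crosses lie at 98.1%; in the other libraries the points of the 3 groups lie between 91.3% and 123%.

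Several marker lists also differed in wild-type replicate 1, and their part in the low protocadherin values was not tested. The 12 neuron markers summed to 2840 FPKM in this library, within the 2560 to 2850 of the other 7, but the sum was carried by Snap25 (1046 FPKM), and single markers parted: 6 of the 12 were lowest in this library, among them Map2 and Gad2 at 48.0% and 58.8% of the median of the other libraries, and 4 were highest. The 8 astrocyte markers summed to 3500 FPKM against 3190 to 3610, with Aldoc and Gfap highest in this library and the other 6 lowest, such as Slc1a2 at 63.4% and Slc1a3 at 73.3%. The 8 oligodendrocyte markers summed to 15700 FPKM against 9720 to 11900, with 7 of 8 highest in this library. The 7 blood markers summed to 211 against 6.12 to 57.0, and the 8 microglia markers to 235 against 147 to 203, with 5 of 8 highest. The 6 Schwann cell markers summed to 9080 against 5390 to 7410, of which the myelin gene Mbp, shared with oligodendrocytes, was 8477, and it was the 1 of 6 that was highest. The 8 endothelial and mural markers summed to 249 against 178 to 221, with 3 highest and 2 lowest. The 10 liver markers summed to 166 FPKM against 39.6 to 105, but Trf alone, which is also made in oligodendrocytes, was 155.6 of this. Hpx, Serpina1e, Ambp and Hp were at 7.33%, 9.72%, 16.9% and 21.4% of the median of the other libraries. For these genes all 4 knock-out libraries lay above all 4 wild-type libraries, so that median was a knock-out value. Among wild-type libraries alone, replicate 1 was lowest for Hpx, at 0.1174 FPKM against 0.3108 to 0.743. For Serpina1e, Ambp and Hp it lay within the range of the other wild-type libraries. The 6 markers of oligodendrocyte precursors were low, at 47.8 against 67.7 to 89.7, with 5 of 6 lowest. The 8 choroid plexus and ependymal markers were low at 17.1 against 20.1 to 34.7, with Ccdc153 at 1.79% and Tmem212 listed at 0. The 4 serotonergic markers (14.3 against 8.99 to 15.7) and the 8 meningeal markers (118 against 93.9 to 221) lay within the range of the other libraries. No marker of these lists was at 0 in all 8 libraries. In bulk tissue, fewer cells of a type and less RNA per cell cannot be told apart.

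Levels of the members in the dorsal horn were low but ordered. Over the 8 libraries 36 of the 57 genes had a mean of at least 1 FPKM: 1 alpha gene, 16 beta genes and 19 gamma genes. Those 36 were tested between genotypes within the fit of all 15061 genes above that mean. Just inside the limit lay Pcdhb14 (1.01 FPKM) and Pcdhgb1 (1.03), and just outside it Pcdhb11 (0.993) and Pcdhb19 (0.962). The median member level was 0.665 FPKM for alpha, 1.29 for beta and 1.74 for gamma. The 5 C-type genes, which use the constant exons but are not part of the alternate promoter choice, included the 3 highest of all members.

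**Figure D3:**
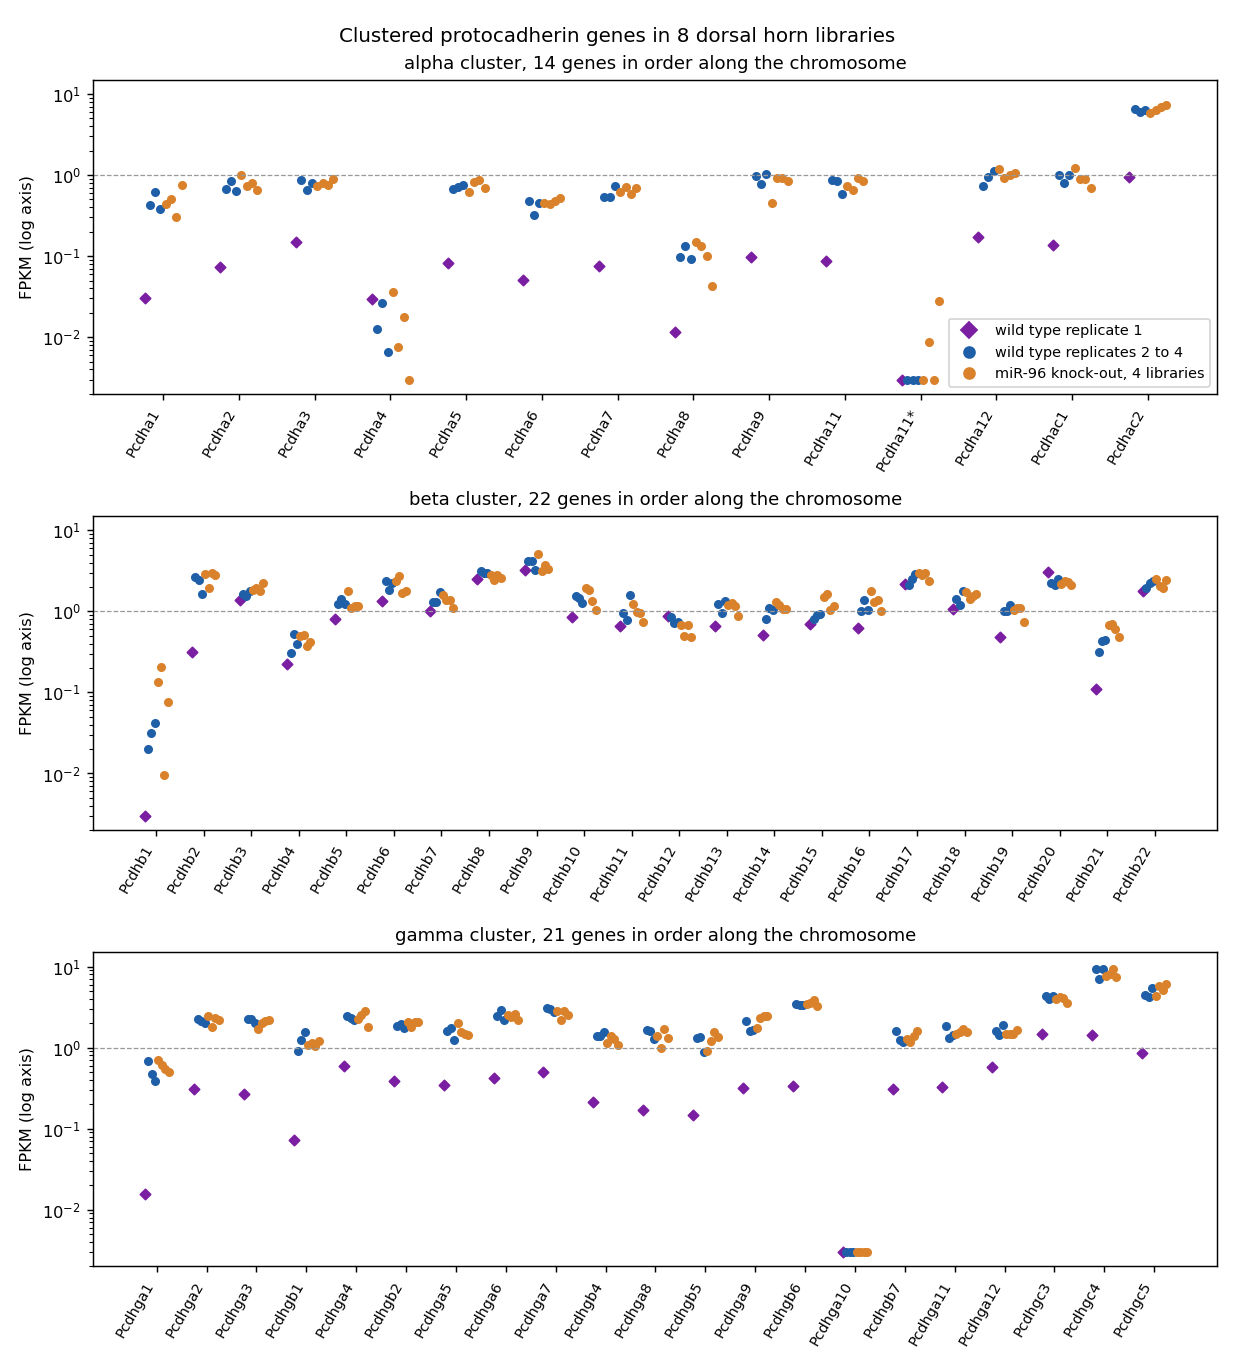
FPKM (log axis) of all 57 members in the 8 libraries, in order along the chromosome, with wild-type replicate 1 as diamonds, wild-type replicates 2 to 4 and the 4 knock-out libraries as circles; values listed at 0 are drawn at the lower edge, the dashed line marks 1 FPKM, and the asterisk marks the second identifier with the symbol Pcdha11. The C-type genes Pcdhac2 and Pcdhgc4 are the highest of their groups, and the diamonds lie far below the circles for nearly all alpha and gamma genes but for few beta genes.

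Among alpha genes the C-type Pcdhac2 (ENSMUSG00000102697, chromosome 18, 37143503 to 37187657) stood alone. In wild type it was at 0.959, 6.59, 6.01 and 6.43 FPKM in replicates 1 to 4, and in the knock-out at 5.90, 6.34, 6.93 and 7.28 FPKM. All libraries but wild-type replicate 1 lay between 5.90 and 7.28, and the genotypes overlapped. It was the highest alpha gene in all 8 libraries and carried 43.5 to 48.5% of the alpha sum in the 7 other libraries and 49.1% in wild-type replicate 1, so its share was kept there while its level was not. Its log2 fold change, knock-out minus wild type, was 0.53 ± 0.39 (SE, n = 4 against 4), with an adjusted p of 0.623 in limma. Without wild-type replicate 1 it was 0.05 ± 0.10 (95% interval -0.17 to 0.27, limma adjusted p = 0.909).

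The alternate alpha genes were lower, at means of 0.00453 to 0.895 FPKM, and 3 of the 12 (Pcdha4, Pcdha8 and Pcdha11, ENSMUSG00000102206) were under 0.1 FPKM. Pcdha12, the highest of them, was at 0.173, 0.743, 0.939 and 1.14 FPKM in wild type and at 1.19, 0.925, 0.991 and 1.06 FPKM in the knock-out. Pcdhac1, the other C-type alpha gene, was at 0.136, 0.999, 0.789 and 0.995 FPKM in wild type and at 1.22, 0.882, 0.899 and 0.700 FPKM in the knock-out. For both genes the genotypes overlapped and only wild-type replicate 1 stood apart. Pcdhac1 thus lay with the alternate genes and not with Pcdhac2. Below Pcdhac2 the order was not firm: Pcdha12 exceeded Pcdhac1 in 6 of 8 libraries, Pcdhac1 exceeded Pcdha9 in 4 of 8, and Pcdha3 exceeded Pcdha11 (ENSMUSG00000007440) in 4 of 8. None of these genes reached a mean of 1 FPKM, so none was tested between genotypes. In the fit with no filter on low values none of the 14 alpha genes had an unadjusted p under 0.05.

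The gamma group was led by its 3 C-type genes. Pcdhgc4 (ENSMUSG00000023036, chromosome 18, 37815079 to 37841873), known as the isoform on which interneuron survival depends, was the highest member of all, at 1.42, 9.39, 7.10 and 9.27 FPKM in wild type and 7.72, 8.07, 9.22 and 7.42 FPKM in the knock-out. Pcdhgc5 was at 0.861, 4.41, 4.18 and 5.50 FPKM in wild type and 4.39, 5.69, 5.13 and 6.15 FPKM in the knock-out. Pcdhgc3 was at 1.47, 4.30, 4.04 and 4.34 FPKM in wild type and 4.02, 4.20, 4.11 and 3.56 FPKM in the knock-out. In each case wild-type replicate 1 was far below the rest and the other libraries of the genotypes overlapped.

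The order within the gamma group was firmer than within alpha. Pcdhgc4 exceeded Pcdhgc5 in 8 of 8 libraries, Pcdhgc5 exceeded Pcdhgc3 in 7 of 8, and Pcdhgc3 exceeded Pcdhgb6, the highest B gene at a mean of 3.10 FPKM, in 8 of 8. Further down, Pcdhga6 exceeded Pcdhga4 in only 4 of 8. Together the C-type genes made up 32.9 to 39.5% of the gamma sum in the 7 other libraries and 41.4% in wild-type replicate 1. The 12 A genes summed to 19.1 to 22.1 FPKM and the 6 B genes to 9.91 to 11.2 FPKM in those 7 libraries. In wild-type replicate 1 the A, B and C sums were 3.84, 1.47 and 3.75 FPKM, which is 18.6%, 14.1% and 21.4% of the means of the other wild-type libraries.

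Between genotypes the C-type gamma genes gave log2 fold changes of 0.43 ± 0.40 for Pcdhgc4, 0.56 ± 0.34 for Pcdhgc5 and 0.20 ± 0.23 for Pcdhgc3 (SE, n = 4 against 4), with limma adjusted p of 0.668, 0.620 and 0.729. Without wild-type replicate 1 the values were -0.07 ± 0.12, 0.15 ± 0.13 and -0.07 ± 0.10, so Pcdhgc4 and Pcdhgc3 changed sign. The 95% intervals without that library were -0.33 to 0.19, -0.14 to 0.45 and -0.30 to 0.15.

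The gamma genes of lowest p besides Pcdhgc5 were Pcdhga9 and Pcdhgb2. Pcdhga9 was at 0.316, 2.15, 1.62 and 1.65 FPKM in wild type and at 1.75, 2.30, 2.44 and 2.43 FPKM in the knock-out. Its 3 highest values were all from knock-out libraries, but wild-type replicate 2 lay above knock-out replicate 1. The log2 fold change was 0.47 ± 0.25 (limma unadjusted p = 0.0874, adjusted p = 0.620) and 0.20 ± 0.14 without wild-type replicate 1 (unadjusted p = 0.171). Pcdhgb2 was at 0.389, 1.84, 1.94 and 1.72 FPKM in wild type and at 2.06, 1.77, 2.07 and 2.09 FPKM in the knock-out. Here 3 knock-out libraries lay just above all wild-type libraries and the other among them, with a log2 fold change of 0.34 ± 0.23 (limma adjusted p = 0.622) that was 0.08 ± 0.11 without wild-type replicate 1.

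The beta genes, apart from Pcdhb12, rest on firmer ground for counting. Each of these is a single exon with little sequence in common with other genes. Pcdhb9 was the highest, at 3.20, 4.16, 4.16 and 3.24 FPKM in wild type and 5.10, 3.19, 3.74 and 3.31 FPKM in the knock-out, an estimated 303 to 618 fragments per library. It exceeded Pcdhb8, the next gene, in 8 of 8 libraries. Pcdhb8 was at 2.48, 3.15, 2.96 and 2.96 FPKM in wild type and 2.80, 2.42, 2.84 and 2.55 FPKM in the knock-out. Pcdhb17 was at 2.20, 2.10, 2.52 and 2.91 FPKM in wild type and 2.98, 2.84, 2.93 and 2.39 FPKM in the knock-out. The genotypes overlapped for all 3 genes, and wild-type replicate 1 lay with the other libraries. Their log2 fold changes were 0.04 ± 0.15, -0.09 ± 0.11 and 0.14 ± 0.12, with limma adjusted p of 0.929, 0.744 and 0.641. Without wild-type replicate 1 Pcdhb9 changed sign, to -0.02 ± 0.15, and Pcdhb8 and Pcdhb17 were at -0.14 ± 0.11 and 0.11 ± 0.13. Below Pcdhb9 the beta order was looser. Pcdhb8 exceeded Pcdhb17 in 5 of 8 libraries and Pcdhb20 exceeded Pcdhb2 in 3 of 8, though Pcdhb3 exceeded Pcdhb18 in 7 of 8.

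Pcdhb15 (ENSMUSG00000047033, a single exon on chromosome 18, 37473540 to 37476340) had the lowest p of all members. It was at 0.702, 0.795, 0.914 and 0.938 FPKM in wild type and at 1.499, 1.63, 1.03 and 1.18 FPKM in the knock-out. All 4 knock-out libraries lay above all 4 wild-type libraries, and the estimated fragments per library ran from 62.8 to 165 over all 8. The wild-type mean was 0.837 FPKM and the knock-out mean 1.33 FPKM. Pcdhb15 thus reached the filter of 1 FPKM only through the knock-out libraries, where it was higher. The log2 fold change was 0.34 ± 0.13 (95% interval 0.04 to 0.64, limma unadjusted p = 0.0303), and adjusted over all genes tested p was 0.620. Without wild-type replicate 1 it was 0.30 ± 0.14 with an unadjusted p of 0.0573. The difference was of like size with and without that library, and it did not pass the threshold.

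Pcdhb3 and Pcdhb2 came next in the beta group. Pcdhb3 was at 1.36, 1.62, 1.55 and 1.77 FPKM in wild type and at 1.81, 1.94, 1.78 and 2.22 FPKM in the knock-out. Its groups did not overlap either, though wild-type replicate 4 and knock-out replicate 3 were nearly equal. The log2 fold change was 0.19 ± 0.12, and 0.15 ± 0.12 without wild-type replicate 1 (limma unadjusted p = 0.135 and 0.235, adjusted p = 0.620 with all libraries). Pcdhb2 was at 0.314, 2.67, 2.43 and 1.61 FPKM in wild type and at 2.87, 1.94, 2.95 and 2.78 FPKM in the knock-out. It is the well-measured beta gene that in wild-type replicate 1 was as low as the alpha genes, and its log2 fold change of 0.49 ± 0.29 was 0.17 ± 0.16 without that library.

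Counted over all genes, the fit called no gene at an adjusted p under 0.05 (background 0.0% of 15061), and 831 genes (5.52%) had an unadjusted p under 0.05, 3.69% higher and 1.83% lower in the knock-out. Among the 36 tested members 1, Pcdhb15, had an unadjusted p under 0.05, which is below that background share. Without wild-type replicate 1 none of the 36 did, against 563 of all genes (3.74%, of which 2.5% of genes tested were higher and 1.23% lower), and again no gene passed the adjusted threshold. The sign of the fold change was positive for 34 of the 36 tested members against 53.1% of all genes, and without wild-type replicate 1 for 19 of 36 against 50.4%. The median log2 fold change was 0.12 for the 16 tested beta genes and 0.27 for the 19 tested gamma genes, beside 0.01 for all genes. Without wild-type replicate 1 these were 0.03, 0.00 (-0.00284) and 0.00 (0.00131). With all 8 libraries and the trend on transcript length removed from each, they were 0.05, 0.19 and -0.02.

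**Figure D4:**
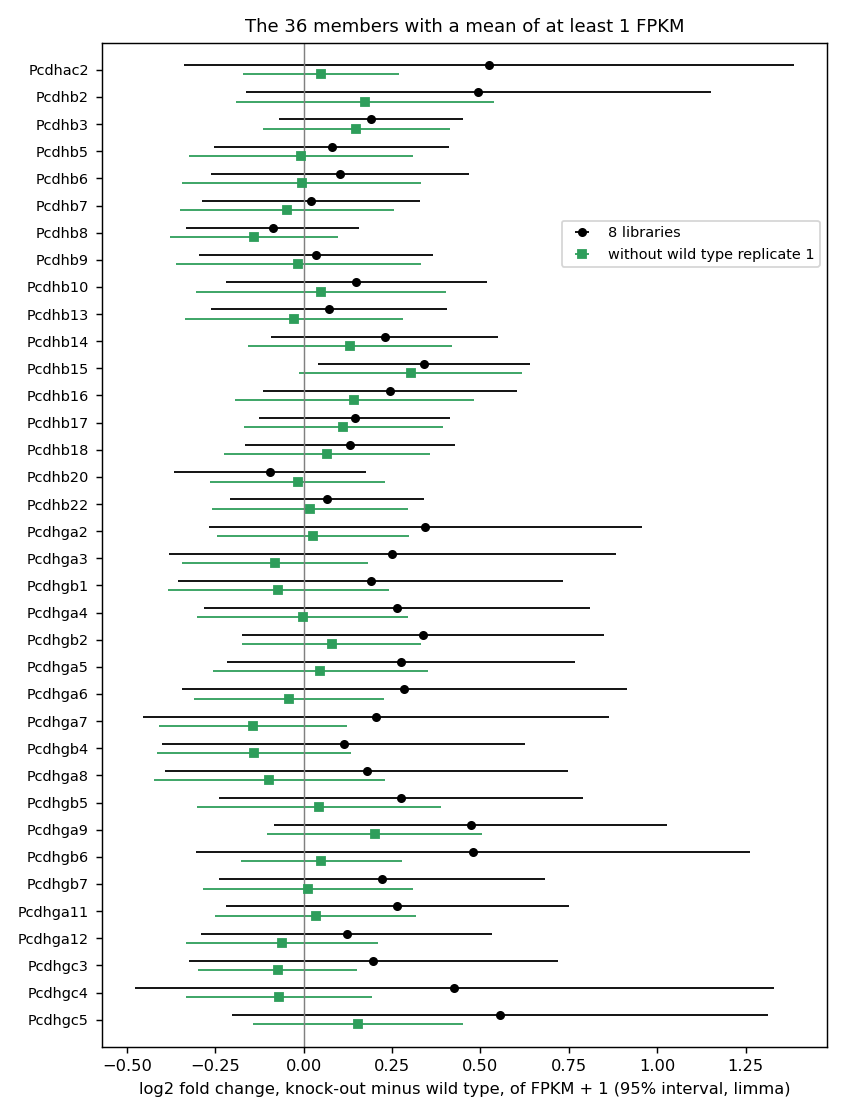
Log2 fold change of FPKM + 1, knock-out minus wild type, with 95% intervals from limma for the 36 tested members, from 8 libraries (black circles) and without wild-type replicate 1 (green squares). With 8 libraries 34 of 36 points lie right of 0 with wide intervals for alpha and gamma genes, and without wild-type replicate 1 the count is 19 of 36 and every interval includes 0.

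The group sums were also compared by their ratio, as a description with no test. The knock-out to wild-type ratio was 1.32 for alpha (14.2 ± 0.649 against 10.8 ± 5.90 FPKM, SD, n = 4 each), 1.12 for beta (35.0 ± 3.42 against 31.2 ± 4.66) and 1.25 for gamma (48.4 ± 2.28 against 38.7 ± 19.8). Against wild-type replicates 2 to 4 the ratios were 1.04, 1.04 and 0.996. The wild-type SD of the alpha and gamma sums rested on replicate 1: over replicates 2 to 4 it was 0.446 and 2.07 FPKM.

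Groups that do not overlap were found in 4 of the 57 genes, all of them beta. All 4 knock-out libraries lay above all 4 wild-type libraries for Pcdhb3, Pcdhb15 and Pcdhb21, and below them for Pcdhb12. Of these Pcdhb3 and Pcdhb15 were among the 16 tested beta genes, Pcdhb15 only through its knock-out values. Among all 15061 tested genes 1.91% had the knock-out above, 1.12% below and 3.03% either. Pcdhb21 and Pcdhb12, named here after their values were seen, lay below 1 FPKM. Pcdhb21 was at 0.111, 0.314, 0.434 and 0.443 FPKM in wild type and 0.681, 0.692, 0.598 and 0.477 FPKM in the knock-out. In the fit with no filter it had an unadjusted p of 0.0300 and an adjusted p of 0.747. Pcdhb12 was at 0.870, 0.854, 0.718 and 0.741 FPKM in wild type and 0.680, 0.501, 0.670 and 0.489 FPKM in the knock-out. It shares 62.6% of its sequence words with the antisense model Gm37446, so its reads cannot be told from that gene's where strand was not used. Pcdhb4, the member with a miR-96 word in its 3′ UTR, was at 0.223, 0.307, 0.527 and 0.401 FPKM in wild type and at 0.495, 0.509, 0.369 and 0.417 FPKM in the knock-out, and the genotypes overlapped.

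Within each group the profile over genes repeated among the 7 other libraries, and for beta and gamma less closely in wild-type replicate 1. Across genes, Spearman's rho between pairs of the 7 other libraries was 0.71 to 0.978 for alpha (14 genes), 0.855 to 0.975 for beta (22) and 0.895 to 0.975 for gamma (21). Between wild-type replicate 1 and each of the 7 it was at least 0.722 for beta and 0.786 for gamma, and at most 0.952, 0.867 and 0.868 for alpha, beta and gamma. These are descriptions over genes of one chromosome region, which share a library and, in alpha and gamma, exons, and genes are not independent replicates. Over the 7 other libraries the coefficient of variation of members with a median of at least 0.2 FPKM ranged from 7.51 to 30.6% for alpha (11 genes), 6.38 to 28.9% for beta (21) and 5.87 to 20.9% for gamma (20).

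The members with the least sequence of their own were also among the lowest in level. Each transcript was split into words of 75 bases, and words found in any other annotated gene were marked as shared. Beta genes shared 0.0 to 9.0% of their words, apart from Pcdhb12 at 62.9%. Alpha genes shared 48.0% (Pcdhac2) to 98.7%, and gamma genes 41.4% (Pcdhgc4) to 98.4%, because of the constant exons and of further gene models across the variable exons. The 3 members with the fewest words of their own were Pcdha4 (70 words), Pcdhga10 (73) and Pcdha11 (ENSMUSG00000102206, 125), and all were at or near 0. Pcdhga10 was listed at 0 in all 8 libraries, Pcdha11 (ENSMUSG00000102206) at 0 in 6 and at no more than 0.0276 FPKM, and Pcdha4 at no more than 0.0361 FPKM. Beyond the words common to their groups, they shared words with the models Gm42416 (Pcdha4), Gm26672 (Pcdhga10) and the antisense Gm10545 (Pcdha11), which were themselves at no more than 0.181 FPKM. A listed value near 0 therefore cannot be read as absence of RNA from these 3 genes. For the other alpha and gamma genes, fragments from the constant exons fit every gene of the group, and how the authors' software divided them is not given in the sources used here. Pcdhgc3, with 1125 words of its own, also shares 31.2% of its words with the antisense BC037039.

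**Figure D5:**
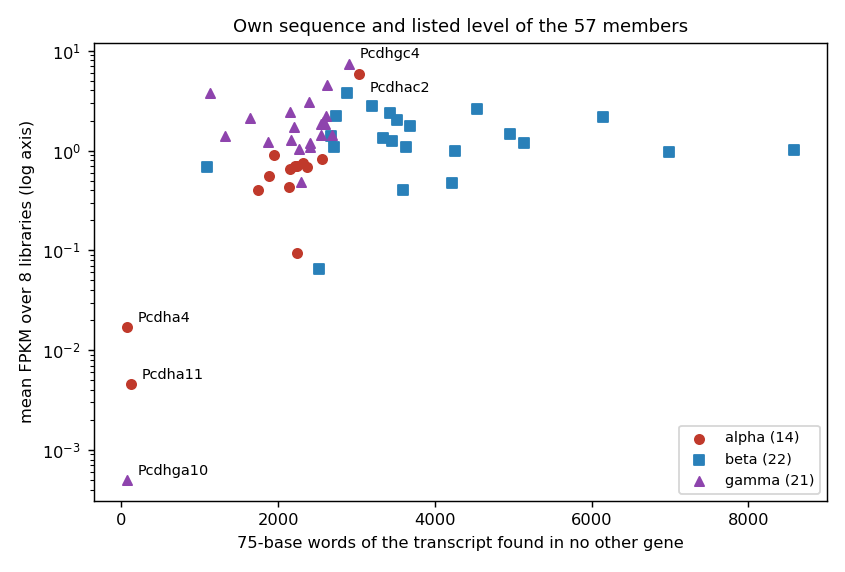
Number of 75-base words of each member's transcript that occur in no other annotated gene (horizontal) and its mean FPKM over 8 libraries (log axis), for 14 alpha, 22 beta and 21 gamma genes; Pcdhga10, listed at 0, is drawn at the lower edge. The 3 genes with 70 to 125 words of their own lie at or near 0, while the remaining members have at least 1097 words.

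Genes that work with the clustered protocadherins were read from the same fit, and none passed the adjusted threshold. The counts of these lists stand beside 53.1% of all 15061 tested genes with a positive fold change. An unadjusted p under 0.05 in limma was found for 5.52% of all tested genes. Of the regulators of promoter choice, 11 of 12 genes for CTCF, cohesin and its loaders and releasers had a positive fold change (1 with unadjusted p under 0.05, higher), with a median log2 fold change of 0.27, and 0.21 without wild-type replicate 1. With the trend on transcript length removed from each library the median was 0.13, and 10 of 12 were positive. Wapl, which releases cohesin from DNA, was at 13.8, 13.6, 14.4 and 19.0 FPKM in wild type and 20.4, 19.6, 15.2 and 20.2 FPKM in the knock-out (log2 fold change 0.30 ± 0.13, limma adjusted p = 0.620, and 0.26 without wild-type replicate 1). Nipbl, which loads it, was at 3.02, 2.95, 3.35 and 5.78 FPKM in wild type and 8.09, 6.71, 3.24 and 6.41 FPKM in the knock-out (0.56 ± 0.25, limma adjusted p = 0.620, and 0.49 without that library). Both genes had wild-type replicate 4 among the knock-out libraries and knock-out replicate 3 near the wild-type ones, so the genotypes overlapped.

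Among 12 genes of DNA methylation and chromatin silencing, 10 were tested and 9 had a positive fold change (2 with unadjusted p under 0.05), with a median of 0.23, and 0.11 without wild-type replicate 1. With the trend on transcript length removed from each library the median was -0.03 and 4 of the 10 were positive. Smchd1, a silencing factor known to act on these clusters, was at 8.73, 9.86, 11.2 and 15.95 FPKM in wild type and 17.5, 15.5, 13.0 and 14.6 FPKM in the knock-out (0.40 ± 0.17, limma adjusted p = 0.620, and 0.29 without wild-type replicate 1). Tet1, an enzyme that oxidises methylated cytosine, was at 1.91, 1.86, 2.24 and 2.22 FPKM in wild type and 3.20, 2.93, 2.52 and 2.26 FPKM in the knock-out, where all 4 lay above all 4 of wild type (0.28 ± 0.12, limma adjusted p = 0.620, and 0.26 without wild-type replicate 1). The sign of Tet1 turned with the length trend removed, to -0.07.

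Of 12 other, non-clustered protocadherins 11 were tested and 10 had a positive fold change (3 with unadjusted p under 0.05), with a median of 0.21, and 0.14 without wild-type replicate 1. With the length trend removed the median was 0.05, and 7 of 11 were positive. Pcdh15, best known from hair cells, was at 3.12, 3.37, 3.94 and 4.997 FPKM in wild type and 6.34, 6.53, 4.00 and 5.84 FPKM in the knock-out (0.46 ± 0.17, limma adjusted p = 0.620, 0.38 without wild-type replicate 1 and 0.23 with the length trend removed). Pcdh9, a delta protocadherin, was at 24.2, 28.4, 32.8 and 37.8 FPKM in wild type and 43.6, 37.6, 34.2 and 44.6 FPKM in the knock-out (0.38 ± 0.14, limma adjusted p = 0.620, 0.27 without wild-type replicate 1 and 0.23 with the length trend removed). For both genes knock-out replicate 3 lay below wild-type replicate 4, and the genotypes overlapped. Both were moderately low in wild-type replicate 1, at 62.5% and 64.3% of the median of the other libraries. The 11 tested genes stood there at 35.3% (Pcdh17) to 89.3% (Pcdh18), and 9 of them were lowest in that library. Pcdh17 thus lay near the gamma genes Pcdhgc3 and Pcdhga12 (35.8% and 39.1%). As a list they summed to 129 FPKM in that library, against 147 to 194 in the other 7.

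Of 22 cytoplasmic partners and processing enzymes 13 had a positive fold change (none with unadjusted p under 0.05), with a median of 0.06, and -0.02 both without wild-type replicate 1 and with the length trend removed (8 of 22 positive in the latter). Adam10, the sheddase that cuts gamma protocadherins, was at 33.0, 35.4, 37.5 and 45.8 FPKM in wild type and 43.7, 42.2, 43.8 and 49.2 FPKM in the knock-out (0.24 ± 0.11, limma adjusted p = 0.620, and 0.18 without wild-type replicate 1). Brk1, a subunit of the WAVE actin complex that binds protocadherin tails, was at 117, 92.2, 87.9 and 73.4 FPKM in wild type and 74.4, 69.3, 84.7 and 73.6 FPKM in the knock-out (-0.27 ± 0.13, limma adjusted p = 0.620, and -0.16 without wild-type replicate 1). For both genes the genotypes overlapped.

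Of 19 classical cadherins and catenins 18 were tested and 14 had a positive fold change (none with unadjusted p under 0.05), with a median of 0.12, 0.02 without wild-type replicate 1 and 0.07 with the length trend removed (12 of 18 positive). Cdh6, at 0.303, 2.76, 3.10 and 2.38 FPKM in wild type and 4.54, 3.81, 2.65 and 3.67 FPKM in the knock-out, stood at 9.77% of the median of the other libraries in wild-type replicate 1, the lowest share among the tested classical cadherins and catenins. Its log2 fold change was 0.69 ± 0.33, and 0.31 without that library (limma adjusted p = 0.620 with it). Cdh12 was at 0.653, 0.763, 0.676 and 1.28 FPKM in wild type and 1.87, 1.66, 0.756 and 1.40 FPKM in the knock-out (0.38 ± 0.19, limma adjusted p = 0.620, and 0.33 without wild-type replicate 1).

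The protein-coding neighbours within 500000 bp of the clusters, or lying between them, were not low as a list in wild-type replicate 1, where 5 of the 24 tested were lowest and 9 highest of the 8 libraries. Of 32 such genes 24 were tested, 10 with a positive and 14 with a negative fold change (1 with unadjusted p under 0.05, higher), and the median was -0.03, and -0.01 without wild-type replicate 1. They summed to 1030 FPKM in wild-type replicate 1, above the 792 to 869 of the other 7 libraries. Much of this excess lay in Ndufa2, at 278 FPKM against 107 to 142, and in Pfdn1, at 91.8 against 44.5 to 57.7. Gm37013, Gm42416 and Gm37388, models that lie among the members, were listed at 0 in all 8. Ankhd1 was at 16.9, 22.5, 26.4 and 28.7 FPKM in wild type and 39.1, 34.8, 26.8 and 28.8 FPKM in the knock-out (0.45 ± 0.17, limma unadjusted p = 0.0256, adjusted p = 0.620, and 0.31 without wild-type replicate 1). Zmat2 was at 86.1, 74.2, 65.4 and 59.7 FPKM in wild type and 56.6, 57.0, 66.4 and 64.5 FPKM in the knock-out (-0.21 ± 0.12, limma adjusted p = 0.620, and -0.12 without wild-type replicate 1).

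The cell type markers showed no adjusted call between genotypes. The 10 liver markers were the list whose tested genes stood furthest from 0, with a median log2 fold change of 1.43, and 1.44 without wild-type replicate 1. Of the 10, 9 had a limma unadjusted p under 0.05, all higher in the knock-out, against 3.69% of all tested genes. Among them Ambp, Hp, Serpina1e, Hpx, Pzp and Ttr had wild-type means of 0.184 to 0.480 FPKM. These genes reached the filter of 1 FPKM only through the knock-out libraries, so their p-values are no independent support. The list was also chosen with earlier results of these data known. The part of the liver markers in the protocadherin values was not tested. Several other medians rested on wild-type replicate 1. The blood markers had a median log2 fold change of -0.39, and of 0.05 without that library. The oligodendrocyte precursor markers went from 0.22 to 0.09 and the choroid plexus and ependymal markers from 0.17 to 0.00 (-0.00376) when it was left out. The meningeal markers had a median of 0.24, and 0.26 without it. The astrocyte, neuron and microglia markers had medians of 0.07, 0.02 and -0.04, and of 0.02, -0.01 and 0.01 without it. The oligodendrocyte, Schwann cell, and endothelial and mural markers had medians of -0.09, -0.03 and -0.02, and of -0.01, -0.05 and -0.02 without it. The 1 tested serotonergic marker was at -0.22, and at -0.19 without it.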

How the data were processed

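Per the labels' protocols, RNA of the dissected dorsal horn was made into polyA libraries with a NEBNext Ultra kit. The submitters' processing notes name HISAT2, SAMtools and Cufflinks, and the authors deposited FPKM per gene, 1 file per library; no version, option or use of strand is stated there. The notes list the build mm8, but the loci per the file headers equalled GENCODE M21 (GRCm38) for 45128 of 49326 genes with a symbol (91.5%), and for all 57 members. The deposited values are not counts, so no count model was fitted. Depth was estimated from the steps of 1 fragment in low values of long single-transcript genes, with an assumed fragment of 200 nt. At the depth chosen, 98.0 to 99.4% of these values came out whole within 0.15. Chance would give 30% at a depth fixed beforehand. The depth was chosen to make these same values whole, so the share is no independent check.

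Knock-out and wild type were compared with limma 3.58.1 in R 4.3.3 (two-sided, with eBayes in its robust form and a variance trend) after taking log2(FPKM + 1), a scale that understates the change of low genes. The 15061 genes with a mean of at least 1 FPKM were fitted together, with Benjamini-Hochberg adjustment over all of them and a threshold of 0.05. Scripts were tested on simulated data. Labels gave the groups, and no positive value was identical between libraries for any gene.

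Values in every library are given for the C-type members and for the 3 members of highest mean and the 3 of lowest p in each group. They are also given for the 2 genes of lowest p in each other list except the marker lists. The lists were non-clustered protocadherins, CTCF and cohesin genes, DNA methylation and silencing genes, cytoplasmic partners and processing enzymes, classical cadherins and catenins, neighbouring genes and markers of 12 cell types or tissues. The members and lists were chosen with earlier results of these data known. Alternatives were a pseudocount of 0.1, no filter, a mean of at least 5 FPKM, median-ratio rescaling, quantile normalization, no trend, library weights, a replicate block, removal of the length trend, and leaving out each library. Promoter and protein sequences of the members were not used here.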

Additional observations from a re-analysis of the deposited data

Results flagged for a closer look

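The highest or lowest of the 4 libraries of a genotype stood apart from the other 3 by Dixon's test at the 95% level in 11 of 58 groups examined, and 6 of the 11 were wild-type replicate 1. Chance flags about 1 in 20 groups. In wild-type replicate 1 the alpha sum was 1.96 FPKM (13.2 to 14.0 in the other wild-type libraries), the beta sum 24.3 (33.0 to 34.4) and the gamma sum 9.06 (46.6 to 50.7). In the same library Pcdhac2 was at 0.959 FPKM (6.01 to 6.59), Pcdhgb2 at 0.389 (1.72 to 1.94) and Pcdhgc3 at 1.47 (4.04 to 4.34). In knock-out replicate 2, Pcdhb2 was low at 1.94 FPKM (2.78 to 2.95) and Pcdhgb2 at 1.77 (2.06 to 2.09). Among the cohesin genes, wild-type replicate 4 was high for Wapl, at 19.0 FPKM (13.6 to 14.4), and for Nipbl, at 5.78 (2.95 to 3.35), and knock-out replicate 3 was low for Wapl, at 15.2 (19.6 to 20.4).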

How the results depend on the processing

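No gene passed the adjusted threshold in limma under the settings tried, except 1627 genes with library weights, none of them a member, and 1 gene without knock-out replicate 2 (0 to 1 over the libraries left out in turn). The weight of wild-type replicate 1 was 0.153. The count of beta genes at unadjusted p under 0.05, 1 with all libraries, was 2 with no filter, 0 with quantile normalization, 0 with the replicate block and 0 to 1 when each library was left out. The gamma count, 0, was 1 with the replicate block and 0 to 1 with a library left out. The median log2 fold changes ranged over the libraries left out from 0.0488 to 0.7 for alpha, 0.0341 to 0.15 for beta and -0.00284 to 0.375 for gamma, and the lowest value was always without wild-type replicate 1. The sum ratios ranged likewise from 1.04 to 1.47 (alpha), 1.04 to 1.16 (beta) and 0.996 to 1.39 (gamma). Pcdhb9 changed sign with quantile normalization (-0.0292) and library weights (-0.117), and ranged from -0.0817 to 0.099 over the libraries left out. Pcdhgc3 ranged from -0.0736 to 0.298 and Pcdhgc4 from -0.0691 to 0.632, each negative only without wild-type replicate 1. Tet1 was -0.0716 with the length trend removed. The cause of these changes was not tested. Of 393 values of named genes under the alternatives, 377 kept direction and side of the threshold, 8 changed sign and 8, none of them a member, passed the threshold with library weights. Same-numbered libraries did not deviate together (correlations -0.108 to 0.144), so the numbers were not taken as pairs. No beta gene reached a mean of 5 FPKM, so that filter gave no beta value. Genes under about 1 FPKM, most of the alpha group among them, were not tested, and estimated depth, from 32000000 fragments, limits them.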
